A study of Rattus norvegicus with 6 samples.

Results

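The microRNAs of the Hox clusters are described here in fibroblasts of rat sciatic nerve and in the extracellular vesicles (EV) these cells release. Members were all arms of miR-10a, miR-10b, miR-196a, miR-196b, miR-196c and miR-615 among the rows of the count table, 11 mature miRNAs from 6 precursors, out of 552 known miRNAs and 1071 rows in all. Small RNA was sequenced from 3 EV samples, called exosomal in the labels, and from 3 samples of RNA inside the cells (Intracellular), which are the controls of the design. All 6 samples came from wild-type, untreated nerve-derived fibroblasts and carry the same batch number. The labels give no strain, age or sex, and do not say whether replicates were separate animals or cultures, so the spread behind each p-value may be technical.

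Hox genes lie in 4 clusters, Hoxa to Hoxd, and are switched on in order along the head-to-tail axis of the embryo, genes at one end of a cluster in anterior tissue and genes at the other end in posterior tissue. The miRNA genes between them are transcribed in similar domains, and both families are known to repress Hox messenger RNAs, with the cleavage of Hoxb8 mRNA by miR-196 as the textbook case. Fibroblasts of adult tissues are known to keep the Hox pattern of the place they come from. In the RefSeq gene order of the GRCr8 assembly, Mir10a lies between Hoxb5 and Hoxb4, and Mir196c lies in the same cluster between Hoxb13 and Hoxb9. Mir10b overlaps Hoxd4, Mir196a lies between Hoxc10 and Hoxc9, Mir196b between Hoxa9 and Hoxa10, and Mir615 overlaps Hoxc5 and Hoxc6. Coordinates are not printed, since the submitters' processing notes name another build, Rnor_6.0.

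The 5p arms are shown first because single bases decide which member, and so which Hox cluster, a read is assigned to. Of the 11 members, 10 were found in the RefSeq table of GRCr8, all 10 with the same letters as in the deposited table. The seed, bases 2 to 8 from the 5′ end, through which a miRNA pairs with its targets, is in capitals, and rno marks rat miRNAs.
rno-miR-10a-5p (Hoxb): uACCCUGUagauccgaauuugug
rno-miR-10b-5p (Hoxd): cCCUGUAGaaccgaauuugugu
rno-miR-196a-5p (Hoxc): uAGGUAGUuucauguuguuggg
rno-miR-196b-5p (Hoxa): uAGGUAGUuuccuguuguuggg
rno-miR-196c-5p (Hoxb): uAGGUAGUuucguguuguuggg
rno-miR-615 (Hoxc): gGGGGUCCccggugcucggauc
The 3 miR-196 members share the seed AGGUAGU, which no other known row of the table has, and differ at 1 base outside it. Counted from the 5′ end, the change from miR-196a-5p is A12C in miR-196b-5p and A12G in miR-196c-5p. Each of the 3 thus reads out a different cluster, but how reads with a sequencing error at that base were assigned is not given in the sources used here.

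The listed miR-10b-5p begins 2 bases further downstream than miR-10a-5p. The RefSeq hairpin of Mir10b, with the listed mature arm in capitals, shows the bases that precede it.
Mir10b hairpin: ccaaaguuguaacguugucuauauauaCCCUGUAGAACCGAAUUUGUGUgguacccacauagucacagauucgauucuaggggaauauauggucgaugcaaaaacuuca
Mir10a hairpin: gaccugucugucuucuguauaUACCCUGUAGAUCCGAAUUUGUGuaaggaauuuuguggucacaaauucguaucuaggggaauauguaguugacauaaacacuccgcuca
Read from the same start as miR-10a-5p, the Mir10b hairpin matches it at 22 of 23 bases, with the change U12A, and has the seed ACCCUGU. With the listed start, its seed is CCUGUAG. No row of the table, known or predicted, holds UACCCUGUAGAACC, the first 14 bases of that run. Whether reads with the upstream start were counted as miR-10b-5p, as miR-10a-5p or not at all is not given in the sources used here. The counts of both rows therefore describe them as listed.

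EV libraries held 81211 to 105578 counts and Intracellular libraries 1839047 to 8859302, so that a single count was worth 9.47 to 12.3 CPM in EV and 0.113 to 0.544 CPM in the cells. CPM are counts of a miRNA per 1000000 counts of its library. Intracellular replicate 1 stood apart in its scaling factor (0.557, against 0.963 and 0.935), and values without it are given where they differ most. The 5 fibroblast and mesenchymal marker miRNAs summed to 436028 to 469356 CPM in the cells and 393094 to 404933 CPM in EV, and the 3 Schwann cell and glial markers to 32.1 to 45.7 and 12.3 to 47.4 CPM. Each of the 3 glial markers had counts somewhere among the 6 libraries, but not necessarily in every library. The liver and serum list held 1 miRNA alone, miR-122-5p, at 117.7 to 344.7 CPM in the cells and 11158 to 13723 CPM in EV. Its level is therefore that of a single miRNA and not of a liver or serum profile. Outside the list, miR-192-5p averaged 134.9 CPM in the cells and 225.1 CPM in EV. For miR-194-5p these averages were 100.85 and 165.1 CPM. The erythroid pair miR-451-5p and miR-486 summed to 2.03 to 5.98 and 151.5 to 221.6 CPM, and the 3 muscle markers to 9.06 to 12.6 and 49.3 to 151.5 CPM. Of the muscle markers, miR-206-3p had means of 2.76 and 85.4 CPM, miR-1-3p of 7.24 and 7.26, and miR-133a-3p of 0.314 and 3.16. Leukocyte markers summed to 9.79 to 32.9 and 0 to 24.6 CPM, and endothelial markers to 141.4 to 390.3 and 259.9 to 435.7 CPM. The neuron list had rows for 2 of its 3 markers, miR-9a-5p and miR-128-3p, and none for miR-124-3p. These 2 summed to 1580 to 3277 and 2160 to 2578 CPM. These last 3 lists overlapped between the groups. The part of liver, erythroid or muscle RNA in the EV levels below was not tested. In bulk RNA such as this, fewer cells or vesicles that carry a miRNA and less of it in each cannot be told apart.

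In the cells the Hox cluster miRNAs spanned mean levels from 6568 to 0.357 CPM. One arm, miR-10a-5p, took most of their counts. By mean Intracellular CPM the order was miR-10a-5p, miR-196a-5p, miR-196b-5p, miR-10a-3p, miR-196c-5p, miR-615, miR-10b-5p, miR-10b-3p, miR-196b-3p, miR-196c-3p and miR-196a-3p. CPM here have no length term. The mature arms have 21 to 23 bases, and a read covers a whole molecule, so that levels can be set side by side per molecule, apart from ligation and PCR bias between sequences, which was not measured.

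**Figure D1:**
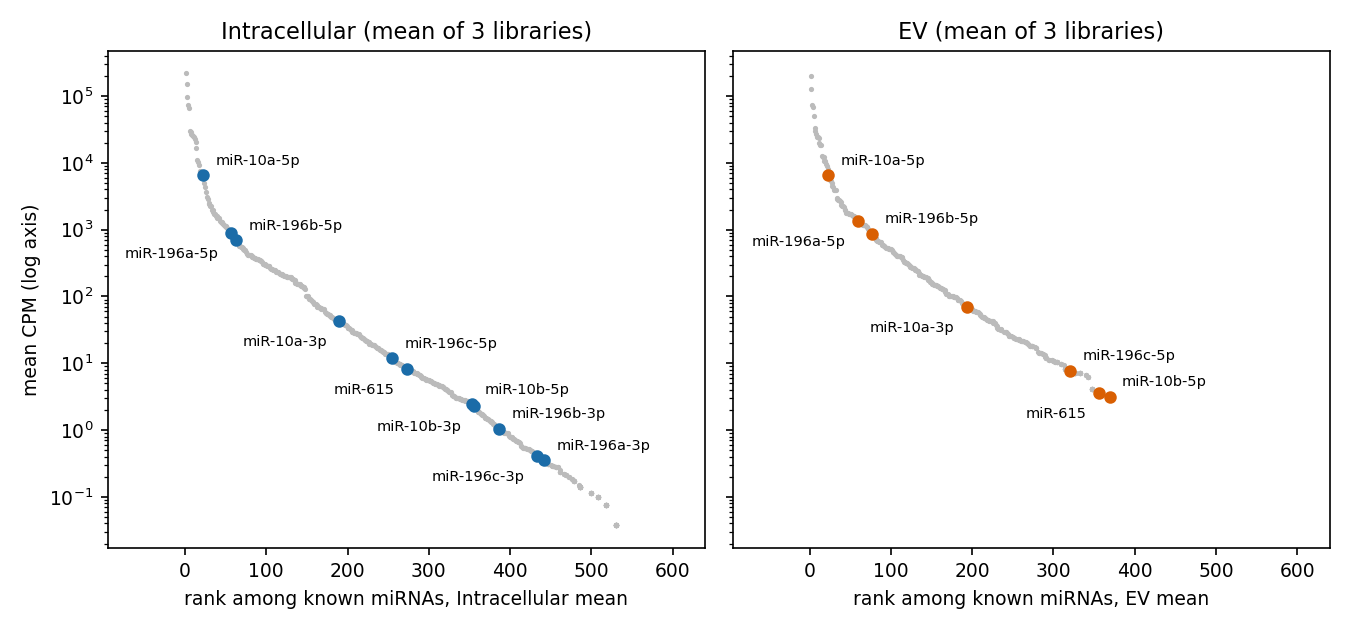
Mean CPM (log axis) against rank for known miRNAs with counts, in the cells (left) and in EV (right). Grey points are other miRNAs and coloured points the Hox cluster miRNAs. miR-10a-5p stands at rank 22 in the cells and 23 in EV, and the miR-196 arms of Hoxc and Hoxa at 57 and 63 in the cells and 60 and 77 in EV.

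rno-miR-10a-5p, from the middle of Hoxb, stood at 5422, 7184 and 7098 CPM in Intracellular replicates 1, 2 and 3, ranks 19, 20 and 22 among known miRNAs. Replicate 1 was the lowest, and in each of the 3 libraries miR-10a-5p was the most abundant member. Its neighbours in the order of all known miRNAs were miR-379-5p above it (mean 6622 CPM) and miR-22-3p below it (6462 CPM), both within 1 SD (993.4 CPM) of its mean of 6568 CPM.

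rno-miR-196a-5p, from the posterior side of Hoxc, followed at 795.5, 940.5 and 928 CPM, ranks 48, 60 and 60. miR-196b-5p, between Hoxa9 and Hoxa10, stood at 560.6, 723.5 and 818.8 CPM, ranks 63, 63 and 65. The ranges of the pair over the Intracellular libraries overlapped, but within each library miR-196a-5p was the higher, by 0.50, 0.38 and 0.18 in log2 ratio (mean 0.35 ± 0.16, SD, n = 3). By mean level miR-196a-5p sat between miR-541-5p (933.5 CPM) and miR-409b (881 CPM).

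The third miR-196 gene, Mir196c, lies in the same cluster as Mir10a but on its posterior side. Its miR-196c-5p stood at only 8.16, 17.5 and 9.82 CPM in the cells. Over the 3 Intracellular libraries it took 160 of 23642 counts of the miR-196 5p arms, 0.677% (exact 95% interval 0.576 to 0.790, counting error only). The 5p arms of Hoxb thus differed widely in level, with the arm encoded next to Hoxb4 high and the one encoded next to Hoxb9 low. Since miR-196c-5p differs from miR-196a-5p by 1 base, the part of misread miR-196a or miR-196b in its counts was not tested.

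miR-615, from within the Hoxc5 and Hoxc6 region, stood at 6.53, 9.36 and 8.80 CPM in the cells, a range that overlapped that of miR-196c-5p. Its mean was 8.23 ± 1.50 CPM (SD, n = 3). Its neighbour in Hoxc, miR-196a-5p, had a mean of 888 ± 80.3 CPM. miR-615 is listed without an arm name and without a partner arm, so its level is that of the listed sequence alone.

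Both arms of miR-10b, the Hoxd member, were low in the cells, and near 3 counts in Intracellular replicate 1. Pooled over the Intracellular libraries they stood at 3.14 (5p) and 2.64 CPM (3p), above the 0.214 CPM that 3 counts are worth there. rno-miR-10b-5p had 2, 8 and 34 counts in Intracellular replicates 1, 2 and 3 (1.09, 2.41 and 3.84 CPM), and miR-10b-3p had 3, 8 and 26 (1.63, 2.41 and 2.93 CPM). miR-10b-3p took 37 of 717 counts of the 3p arms of miR-10a and miR-10b, 5.16% (exact 95% interval 3.66 to 7.04). For the 5p arms, where the miR-10b row has the downstream start described above, the share of miR-10b was far lower, 44 of 96696 or 0.0455% (0.0331 to 0.0611).

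In the cells, 45.7% of miR-10b counts were on the 3p arm (34.6 to 57.1), against 0.699% for miR-10a (0.647 to 0.753). The part of the listed start in these shares was not tested. The arms are cut from opposite sides of 1 hairpin, and one of them is usually kept. The remaining 3p arms were rarer still: miR-196b-3p had 0, 4 and 17 counts, miR-196a-3p had 1, 1 and 2, and miR-196c-3p had 4 counts in Intracellular replicate 2 alone. The 3p share was 0.0312% for miR-196a (0.00851 to 0.0800) and 0.196% for miR-196b (0.121 to 0.300).

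**Figure D2:**
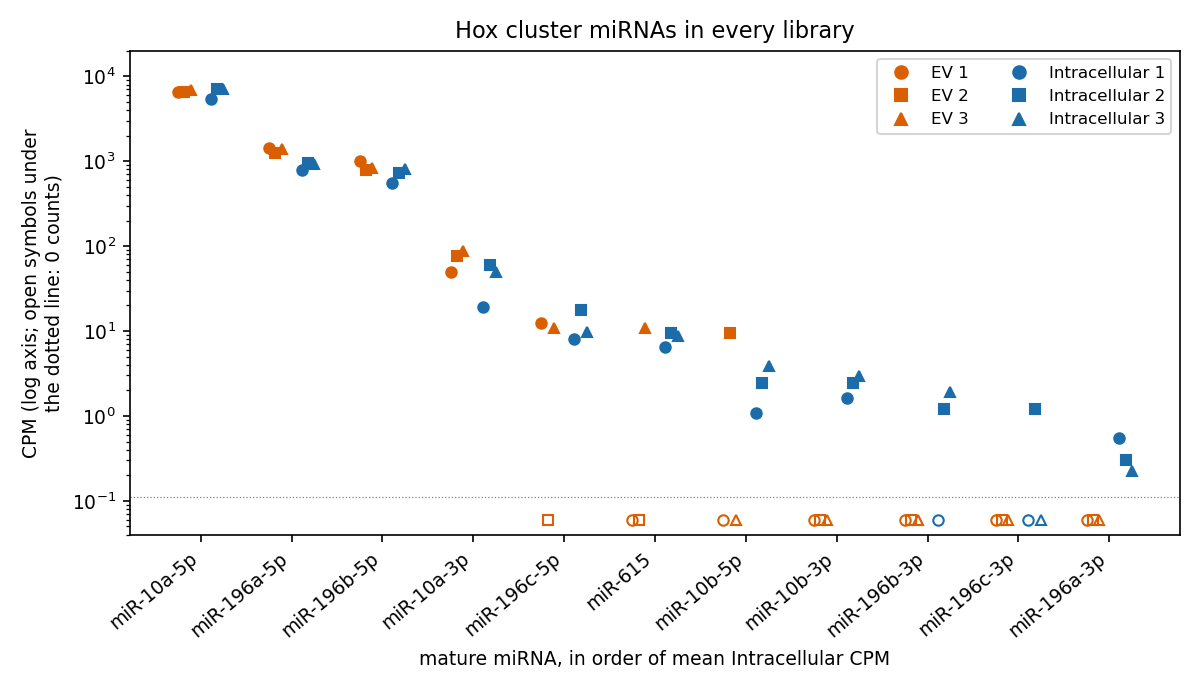
CPM (log axis) of the 11 members in each library, with 1 symbol per library and open symbols under the dotted line for 0 counts. The 4 most abundant arms have counts in all 6 libraries. In EV, 4 of the 3p arms are at 0 in every library.

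Summed by cluster, Hoxb members took 80.5% ± 0.665 of member counts in the cells, Hoxc members 11.0% ± 0.703, Hoxa members 8.51% ± 0.600 and the Hoxd member 0.0566% ± 0.0181 (SD, n = 3). The Hoxb share is almost wholly miR-10a-5p. The Hoxd share counts miR-10b-5p as listed, with its downstream start. In the cells miR-10b took 5.16% of the 3p arms of miR-10a and miR-10b, but 0.0455% of their 5p arms. The Hoxb and Hoxd shares therefore hold for the rows as listed. In EV the shares were 74.9% ± 1.85, 15.3% ± 0.726, 9.78% ± 1.30 and 0.0364% ± 0.0631, the last from 1 count. The ranges of the Hoxb and Hoxc shares did not overlap between the groups (exact permutation test, 2-sided, p = 0.1 for each, the smallest that 3 against 3 samples allow), while that of Hoxa did (p = 0.3). For scale, 45.4% of all 328 tested miRNAs did not overlap in CPM between the groups, though CPM of single miRNAs is another measure than these shares. How often shares of this kind separate was not tested. The shares are parts of 1 total, so the lower Hoxb and higher Hoxc shares in EV are not separate results. All members together took 0.895%, 0.867% and 0.915% of counts in EV replicates 1, 2 and 3 and 0.681%, 0.894% and 0.892% in Intracellular replicates 1, 2 and 3 (exact permutation p = 0.5). Without Intracellular replicate 1 the difference was -0.000910 percentage points. With the 10 most abundant miRNAs of the table left out of the total the order turned, to 2.55% ± 0.153 in EV and 3.20% ± 0.0476 in the cells (exact permutation p = 0.1).

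The vesicles were compared with the cells to see which members were carried in other proportions. The same 3 arms led in both, and the EV level of miR-10a-5p lay inside the range of the cells. miR-10a-5p was at 6452, 6535 and 6813 CPM in EV replicates 1, 2 and 3 (mean 6600 ± 188.6, SD, n = 3), against 6568 ± 993.4 CPM in the cells. The groups overlapped, with Intracellular replicate 1 below and the other Intracellular libraries above all EV libraries.

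miR-196a-5p was at 1428, 1260 and 1408 CPM in EV, a mean of 1365 ± 92.1 against 888 ± 80.3 CPM in the cells (SD, n = 3). All EV libraries were above all Intracellular ones (exact permutation p = 0.1). Of the 328 miRNAs tested, 41.8% were in the same way higher in EV without overlap of CPM, so this is common in the table. miR-196a-5p was the single one of the 5 tested members without overlap, where the share over all tested miRNAs, in either direction, was 45.4%.

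miR-196b-5p was at 1010, 786.1 and 823.1 CPM in EV, against 701 ± 130.6 CPM in the cells, and EV replicate 2 lay below Intracellular replicate 3. miR-10a-3p, the minor arm, was at 49.3, 75.8 and 86.6 CPM in EV from 4, 8 and 8 counts, and at 19.0, 60.7 and 50.1 CPM in the cells. Both of these overlapped between the groups.

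By edgeR with TMM scaling, which sets most miRNAs to no change on balance, 1 of the 5 tested members was called, against 42.7% of all tested miRNAs. This was miR-10a-5p, whose log2 fold change (EV minus Intracellular) was -0.65 (SE 0.21, edgeR adjusted p = 0.0182). With total-count scaling its value was 0.01 (SE 0.22, adjusted p = 0.966), so the lower call depends on the scaling. Lower calls made up 17.1% of all 328 tested with TMM and 0.915% with total counts. The TMM call was kept without Intracellular replicate 1 (-0.44, adjusted p = 0.00217), but was lost without EV replicate 1 (-0.64, adjusted p = 0.0780), EV replicate 2 (-0.68, 0.0688), Intracellular replicate 2 (-0.58, 0.0702) or Intracellular replicate 3 (-0.57, 0.0820), with the filter applied again. Over all alternatives its adjusted p ran from 0.000691 to 0.966.

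The other tested members did not pass, and with total counts none of the 5 did, where 32.6% of all tested miRNAs were called higher. With TMM scaling edgeR gave miR-196a-5p a value of -0.06 on the log2 scale (SE 0.20, adjusted p = 0.831) and miR-196b-5p one of -0.34 (SE 0.20, adjusted p = 0.179). Without Intracellular replicate 1 these were 0.22 (adjusted p = 0.261) and -0.15 (adjusted p = 0.490). In all 6 libraries, total-count scaling gave the pair 0.62 (SE 0.31, adjusted p = 0.129) and 0.32 (SE 0.32, adjusted p = 0.536). Under TMM and total counts, in that order, miR-10a-3p had 0.15 (SE 0.42) and 0.71 (SE 0.55), and miR-196c-5p, which rests on 2 EV counts, had -1.29 (SE 0.98) and -0.71 (SE 1.06). Without EV replicate 2, the EV library with no count of it, the TMM value of miR-196c-5p was -0.65 (edgeR adjusted p = 0.724).

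Over all tested miRNAs the log2 fold change had a median of -0.06 with TMM and of 0.55 with total counts, and calls were 84 higher and 56 lower against 107 higher and 3 lower. Higher calls made up 60.0% of calls with TMM, 97.3% with total counts and 44.2% with upper-quartile scaling. Set against the median of its own scaling, miR-10a-5p was at -0.58 with TMM and -0.54 with total counts, miR-196b-5p at -0.28 and -0.23, and miR-196a-5p at 0.01 and 0.07. A change of scaling shifts all miRNAs nearly alike, so these pairs of values are close by construction.

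**Figure D3:**
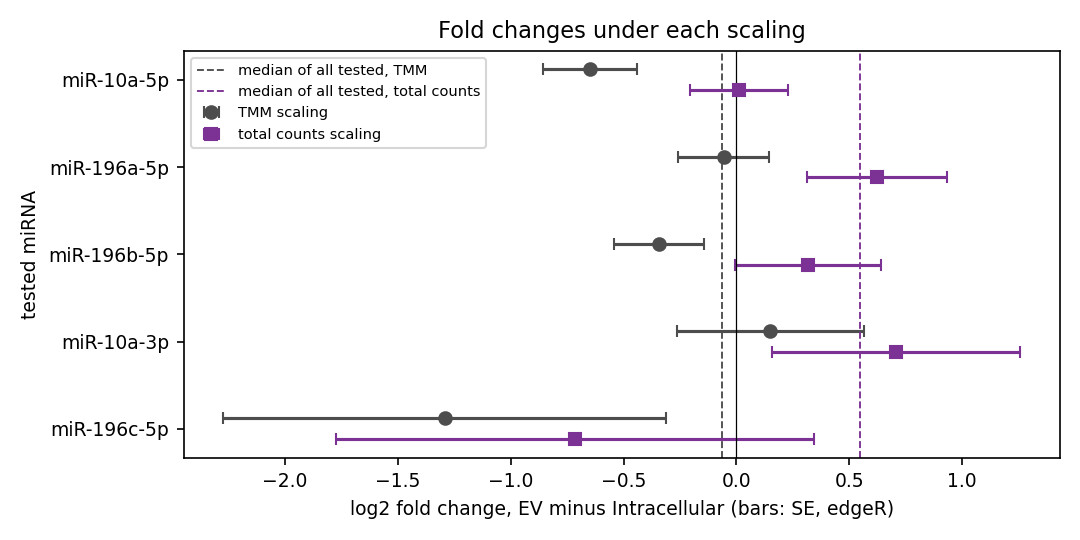
Log2 fold change (EV minus Intracellular) with its SE from edgeR for the 5 tested members, under TMM (circles) and total-count scaling (squares). Dashed lines mark the median of all tested miRNAs, -0.06 and 0.55. Each member moves to the right with total counts, together with the median.

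Ratios of members within a library need no scaling between libraries. In EV there were 4.52, 5.19 and 4.84 counts of miR-10a-5p for each count of miR-196a-5p in replicates 1, 2 and 3. In the cells there were 6.82, 7.64 and 7.65. All EV ratios were below all Intracellular ones, with a difference of -0.61 in mean log2 ratio (2.27 ± 0.10 against 2.88 ± 0.10, SD, n = 3, exact permutation p = 0.1, the smallest possible, 0.133 adjusted over 4 ratios). Leaving out any 1 library gave -0.66 to -0.56. The balance between the Hoxb member miR-10a-5p and the Hoxc member miR-196a-5p therefore differed between EV and cells by more than the spread between libraries. An exact permutation test of 3 against 3 samples cannot reach a p of 0.05. How often other pairs of miRNAs separate in this way was not tested, and 45.4% of all tested miRNAs did not overlap in CPM. Against the TMM median of all tested miRNAs, miR-10a-5p was at -0.58 and miR-196a-5p at 0.01. This ratio was added after the data were seen.

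Among the miR-196 arms, miR-196a-5p outnumbered miR-196b-5p 1.41, 1.60 and 1.71 to 1 in EV and 1.42, 1.30 and 1.13 to 1 in the cells. The mean log2 ratio was 0.65 ± 0.14 against 0.35 ± 0.16 (SD, n = 3), and the groups overlapped (exact permutation p = 0.2, also 0.2 after adjustment).

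The major arm of miR-10a outnumbered the minor one 131, 86.3 and 78.6 to 1 in EV and 285, 118 and 142 to 1 in the cells, without prior count. With the prior count of 0.5 the log2 ratio was 6.47 ± 0.35 against 7.39 ± 0.66 (SD, n = 3), a difference of -0.91 that was -0.54 without Intracellular replicate 1, the library with the highest ratio. The exact permutation p was 0.1 (0.133 after adjustment) with that prior count and 0.2 without it, where EV replicate 1 lay above Intracellular replicate 2, and the EV ratios rest on 4, 8 and 8 minor-arm counts.

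**Figure D4:**
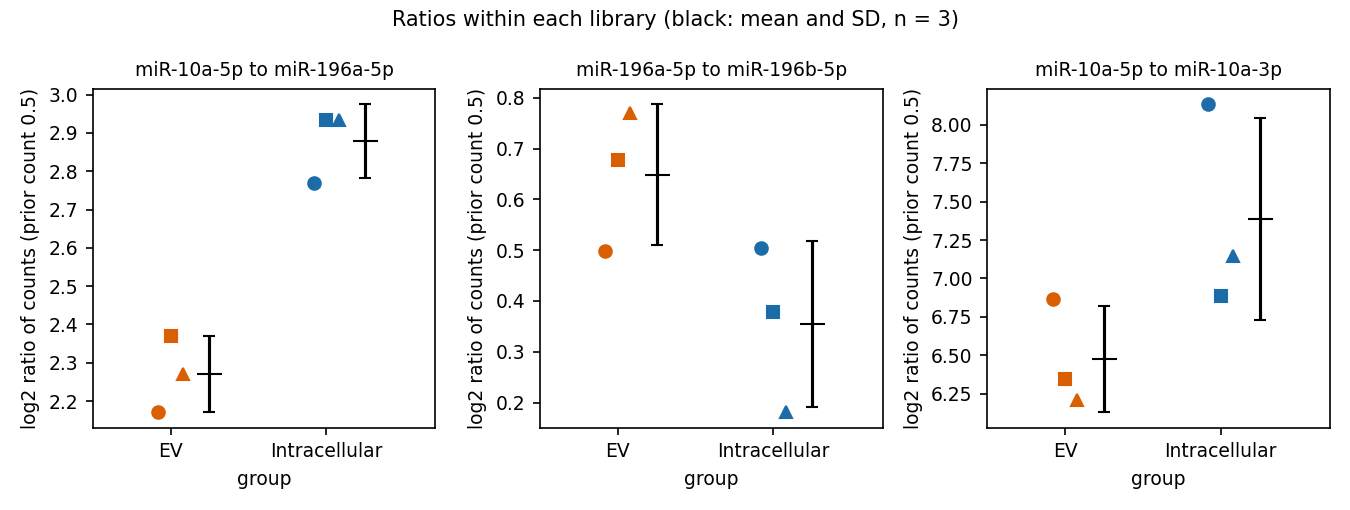
Log2 ratios of counts of 2 members within each library, with 1 symbol per library and the mean and SD (n = 3) in black. The ratio of miR-10a-5p to miR-196a-5p is lower in the 3 EV libraries than in the 3 Intracellular ones, while that of miR-196a-5p to miR-196b-5p overlaps between the groups.

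The other 6 of the 11 members did not pass the filter on low counts and were not tested. At the pooled level of the cells, 279118 EV counts in all would hold 0.877 counts of miR-10b-5p, 0.737 of miR-10b-3p, 2.41 of miR-615, 0.418 of miR-196b-3p and 0.0797 each of miR-196a-3p and miR-196c-3p. The counts found were 1, 0, 1, 0, 0 and 0. The pooled ratio of EV to Intracellular CPM was 1.14 for miR-10b-5p (exact 95% counting interval 0.0283 to 6.70) and 0.415 for miR-615 (0.0104 to 2.36). For the tested miR-196c-5p, with 2 EV counts, it was 0.627 (0.0753 to 2.30). An absence of counts allows up to 10.7 CPM over the pooled EV libraries (3 counts), above the Intracellular level of each untested member. A lower level of these members in EV was not detectable at this depth, and a higher one is limited by the upper bounds given. For the same reason the log2 ratio of miR-10a-5p to miR-10b-5p, 9.73 ± 0.77 in EV and 11.41 ± 0.57 in the cells (SD, n = 3, exact permutation p = 0.1), rests on 1 EV count of miR-10b-5p and on the prior count, and its difference of -1.69 became -3.03 with a prior count of 2.

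miR-10 has kin by sequence outside the Hox clusters, miR-99, miR-100 and miR-125. Of their 5 tested 5p arms, miR-99a, miR-99b, miR-100, miR-125a and miR-125b, all 5 were called lower in EV with TMM and 0 with total counts, where 17.1% and 0.915% of all tested miRNAs were called lower. With TMM their log2 fold changes ran from -0.99 to -0.59, with a median of -0.83 against -0.06 for all tested miRNAs. Lower calls with TMM were not confined to kin. Abundant miRNAs outside the list were also called, among them let-7f-5p (-1.14) and miR-21-5p (-0.97), while miR-24-3p (0.20) was not. Of the neighbours of miR-10a-5p in level, miR-379-5p was called lower (-0.91) and miR-22-3p was not (0.31). The part of abundance in the calls of the kin was not tested. Among the 285 known tested miRNAs that are no members, the 3 closest to miR-10a-5p in pattern over the 6 libraries were miR-100-5p, miR-99b-5p and miR-370-3p. Their distances in centred log2(CPM + 1) were 0.105, 0.193 and 0.213. The first 2 are from that list of kin, and all 3 share the libraries and their depth with miR-10a-5p.
miR-10a-5p: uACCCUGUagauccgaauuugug
miR-100-5p: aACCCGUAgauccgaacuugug
miR-99b-5p: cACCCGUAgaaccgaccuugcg
The sequences of this likeness are shown because miR-100-5p and miR-99b-5p have the seed ACCCGUA in place of ACCCUGU. miR-100-5p was at 9764 CPM in EV and 9278 CPM in the cells by mean (log2 fold change -0.59, edgeR adjusted p = 0.0413). The 3 closest to miR-196a-5p were miR-495, miR-409b and miR-434-3p, at distances of 0.166, 0.197 and 0.239. For miR-10b-5p, with few counts, the closest were miR-6331, miR-547-3p and miR-152-5p, at larger distances of 1.95, 1.99 and 2.08.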

How the data were processed

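Small RNA of 3 EV and 3 Intracellular samples was compared. Whole-number counts per mature miRNA were deposited by the authors. The TPM table, also deposited by the authors, equals those counts scaled to 1000000 per library (largest difference 4.78e-05). The submitters' processing notes name cutadapt and the build Rnor_6.0. Aligner, miRNA database and counter were not given in the sources used here. Each column was tied to its sample by the group and replicate number in its name.

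Counts of all rows were tested with edgeR 4.0.16 in R 4.3.3 (quasi-likelihood, TMM, filterByExpr with minimum count 10 and minimum total 15, robust, 2-sided, EV minus Intracellular), with Benjamini-Hochberg adjustment over the 328 rows tested and a threshold of 0.05. SE came from the F statistic. The procedure was checked on simulated counts. Single values were compared with exact permutation tests (scipy 1.17.1). Log2 ratios used a prior count of 0.5. Intervals are for counts pooled over the libraries of a group, and cover counting error but not the spread between libraries. No molecular identifiers are named, so PCR copies may be among the counts. Alternatives used other scalings and filters, DESeq2 1.42.0, limma 3.58.1, a replicate block and each library left out.

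The members, lists, named miRNAs and tests were chosen with earlier results of these data known. Named besides the members are the 3 known tested miRNAs with the smallest distance in centred log2(CPM + 1) to miR-10a-5p, miR-10b-5p and miR-196a-5p, and neighbours of these in level. Ratios other than that of miR-10a-5p to miR-10b-5p, and fits without a library on the rows tested in the full fit, were added after the data were seen.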

Additional observations from a re-analysis of the deposited data

How the results depend on the processing

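Scaling turned the sign of 4 of the 5 tested members. With total counts, limma on log2(TPM + 1) and limma on log2(TPM + 0.1), the log2 fold change of miR-10a-5p turned to 0.010, 0.018 and 0.018, of miR-196a-5p to 0.62, 0.62 and 0.62, and of miR-196b-5p to 0.32, 0.33 and 0.33. Upper-quartile scaling made miR-196b-5p a lower call (-0.58, adjusted p = 0.0240) and turned miR-10a-3p to -0.11. With at least 10 counts in 3 libraries miR-10a-5p lost its call (-0.52, adjusted p = 0.0560) and miR-196a-5p was at 0.076, and with known miRNAs alone miR-196a-5p was at 0.065. Lower calls among all tested numbered 3, 4 and 2 with total counts and the limma fits on TPM, 92 with upper quartiles, 36 with at least 10 counts in 3 libraries and 37 with known miRNAs alone. Higher calls numbered 197 without a filter. With all members summed, the difference in their share of counts was -0.654 percentage points without the 10 most abundant miRNAs in the total.

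Leaving out each library with the filter applied again gave -0.79 to -0.44 for miR-10a-5p, -0.20 to 0.22 for miR-196a-5p, -0.46 to -0.15 for miR-196b-5p, -0.13 to 0.32 for miR-10a-3p and -1.82 to -0.65 for miR-196c-5p (the last 2 did not pass the filter without an Intracellular library), 50 to 69 higher calls, 26 to 55 lower calls and -0.000910 to 0.106 percentage points for the summed share. With the tested rows kept the ranges were -0.73 to -0.46, -0.15 to 0.20, -0.43 to -0.18, -0.064 to 0.37, -1.75 to -0.61, 62 to 91 and 18 to 58. The call of miR-10a-5p was then lost without EV replicate 1 (adjusted p = 0.0949) and EV replicate 2 (0.0750). Ranks among all rows, predicted miRNAs included, moved in EV for miR-10a-3p (from 193 to 213) and miR-196c-5p (from 320 to 441). Such a move is the number of predicted rows with a higher mean EV CPM than the member.

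With the replicate number as a block, miR-10a-5p was at -0.64 (edgeR adjusted p = 0.0407) and calls were 87 higher and 46 lower, and no member changed its call. Same-numbered libraries did not deviate together (r of deviations 0.0336, 0.0886 and -0.0232), and EV replicates 1 and 2, but not 3, correlated best with their own number. A ratio to miR-10b-5p without a prior count could not be had in EV replicates 1 and 3.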
